A study of Mus musculus with 19 samples.

Results

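The 10 genes described here encode transcription factors that direct the formation of myeloid blood cells: Cebpa, Cebpb, Cebpd, Cebpe, Spi1, Gfi1, Irf8, Klf4, Runx1 and Gata2. They were chosen by symbol from the 16842 genes of the gene count tables. Of these, 9 were matched by their symbol. Spi1, which encodes PU.1, was matched through its older symbol Sfpi1. All 10 passed the filter on low counts in every comparison.

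RNA was sequenced from 19 libraries of mouse bone-marrow cells in 6 groups. Myeloid cells sorted for CD11b, the surface integrin subunit encoded by Itgam, came from mice of 4 months (young; 3 MT and 4 WT libraries) and of 18 months (old; 3 MT and 3 WT). LK cells, a progenitor fraction without lineage markers and with the receptor Kit, came from mice of 18 months (3 MT and 3 WT). MT stands for mutant, and the title of the series names mutant ASXL1, a chromatin regulator; WT stands for wild type. The allele, what drives it, the strain and the sex are not given in the sources used here, nor is whether the libraries of a group came from separate animals, so p-values measure the spread between these libraries, which may be technical.

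Stem and progenitor cells commit to the granulocyte and monocyte lineages as a small set of DNA-binding factors is switched on and balanced. Runx1 and Gata2 act from the stem cell stage, PU.1 (Spi1) and C/EBPα (Cebpa) open the myeloid programme, and C/EBPε (Cebpe) with Gfi1 carries granulocytes through maturation. IRF8 (Irf8) and KLF4 (Klf4) favour monocytes and dendritic cells, and C/EBPβ and C/EBPδ (Cebpb, Cebpd) are abundant in mature and stimulated myeloid cells.

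Gene counts per library ran from 26251822 to 38347903 in the young set, 41909460 to 68260809 in the old set and 31853263 to 59882448 in the LK set. Levels are given as CPM, gene counts relative to the size of the library, scaled across all 19 libraries. The sort markers followed the labels. Itgam was at 45.2 to 85.4 CPM in LK and 3154 to 3462 CPM in old CD11b libraries. Kit was at 169.7 to 219.6 CPM in LK and 62.1 to 69.4 CPM in old CD11b libraries. Within LK cells, Kit was called lower in MT libraries (log2 difference -0.26 ± 0.08, SE, edgeR adjusted p = 0.03619). That call was met in 7 of 16 alternative fits. Itgam was not called between genotypes in LK cells (0.51 ± 0.24, adjusted p = 0.1736). Asxl1 itself was at 113 ± 6.0 CPM in LK WT and 94.9 ± 2.5 CPM in LK MT libraries (SD, n = 3 each), a fitted log2 difference of -0.28 ± 0.06 (SE; edgeR adjusted p = 0.0119). That call was met in 7 of 16 alternative fits (log2 differences from -0.37 to -0.07, highest adjusted p = 0.2113) and was lost without replicate 2 or replicate 3 of either genotype. The differences in young (-0.13, adjusted p = 0.9993) and old CD11b cells (-0.01, adjusted p = 0.939) were not called. In each of the 4 groups of 18 months, replicates 2 and 3 were close to each other (chi-square per degree of freedom 3.02 to 6.74). Either was further from replicate 1 (14.6 to 47.6). Genotype comparisons within 18 months are therefore also given without replicate 1 and with replicates 2 and 3 summed. A fit on replicates 2 and 3 alone measures only the small spread between these close libraries. Its p-values are therefore too small to count as stronger evidence than the main fit. In bulk samples like these, fewer cells of a type and less RNA per cell cannot be told apart.

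The 10 genes lie on 8 chromosomes in the mm10 build. Cebpb (chr2:167688915-167690418) and Spi1 (chr2:91082390-91115756) share chromosome 2 with Asxl1 (chr2:153345829-153404007), at distances of 14.28 and 62.23 megabases. Cebpa lies at chr7:35119293-35121928, Cebpd at chr16:15887286-15891031, Cebpe at chr14:54710360-54712174 and Runx1 at chr16:92601466-92826149. Gfi1 lies at chr5:107716657-107726036, Irf8 at chr8:120736358-120756694, Klf4 at chr4:55527143-55532466 and Gata2 at chr6:88193891-88207032. Cebpb and Cebpd each have 1 exon. Whether counting used the strand is not stated, so reads of Cebpa, Cebpb, Cebpd, Gfi1 and Runx1 cannot be told apart from reads of overlapping genes on the other strand (Gm45091, Tmem189, Spidr, A430072P03Rik and Gm26626), and Irf8 overlaps Gm20388 on its own strand.

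RefSeq (GRCm38.p6) gave 11 promoter windows for 7 of the genes, each from 250 bases before to 50 bases after a start. Core letters of the motifs bound by these factor families were searched on both strands. The C/EBP core TTGCNNAA was in 1 of the 11 windows and in 10.8% of all 32841 windows. The KLF core GGGNGTGG was in 3 (17.6% of all), the ETS core GAGGAA of PU.1 in 1 (28.3%) and the RUNX core TGTGGT in 1 (16.8%). The GATA core AGATAA (11.2%) and a tandem-repeat IRF motif (3.44%) were in none. The 3 stretches below are shown because each holds a match to the core of another family among these genes, as does the other Gfi1 window with its KLF core, which is not shown. They stand 5′ to 3′ on the gene's strand, with the matches in capitals, and a match describes letters and not a bound site.
Gfi1, chr5:107725901-107725950, minus strand, with a C/EBP core and a KLF core: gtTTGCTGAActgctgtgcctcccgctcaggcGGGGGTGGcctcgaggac
Cebpb, chr2:167688665-167688914, plus strand, with a KLF core read on the other strand: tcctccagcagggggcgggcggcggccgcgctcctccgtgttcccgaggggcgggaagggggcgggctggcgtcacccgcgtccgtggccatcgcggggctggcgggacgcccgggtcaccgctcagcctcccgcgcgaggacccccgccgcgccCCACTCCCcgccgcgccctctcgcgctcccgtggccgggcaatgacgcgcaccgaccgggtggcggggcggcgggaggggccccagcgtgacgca
Runx1, second start, chr16:92697330-92697579, minus strand, with an ETS core read on the other strand: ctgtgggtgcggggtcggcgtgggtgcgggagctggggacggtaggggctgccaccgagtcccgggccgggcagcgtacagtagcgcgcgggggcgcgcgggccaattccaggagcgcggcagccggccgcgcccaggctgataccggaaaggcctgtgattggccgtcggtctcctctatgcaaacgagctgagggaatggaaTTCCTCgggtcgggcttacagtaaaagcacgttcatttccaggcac

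The Cebpb window was 80.7% G and C, above 99.2% of all windows (median 52.7%). The 2 Runx1 windows differed, at 45.0% for the first start and 69.0% for the second. The other windows lay between 54.7% and 74.3%.

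Levels of different genes were compared per kilobase of the longest coding transcript. Among WT libraries, the leading factors were Cebpb in young CD11b cells (235 ± 21.9 CPM per kilobase, SD, n = 4), Cebpe in old CD11b cells (411 ± 17.8, n = 3) and Irf8 in LK cells (65.4 ± 3.2, n = 3). In young WT cells Spi1 (159 CPM per kilobase) and Cebpe (154) followed with overlapping ranges, then Irf8 (68.2), a group of Cebpd (49.3), Klf4 (46.6) and Cebpa (40.9) that overlapped in turn, Runx1 (26.5), Gfi1 (21.9) and Gata2 (9.79). In old WT cells Spi1 (361 CPM per kilobase), Cebpb (248) and Cebpd (90.1) followed Cebpe without overlap. Cebpa (33.1) came next, its range overlapping that of Klf4. Irf8, Gfi1 and Klf4 overlapped one another (29.2, 27.9 and 25.0 CPM per kilobase), and Runx1 (12.1) and Gata2 (0.873) came last.

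In LK WT cells Spi1 (50.1 CPM per kilobase) came second. Cebpa, Cebpe, Gfi1, Cebpb and Gata2 (38.3 to 22.0) each overlapped the next, and Klf4 (13.2), Runx1 (11.2) and Cebpd (7.64) closed the order. In LK MT cells the first 3 were Cebpe, Spi1 and Irf8 (68.0, 64.3 and 56.9 CPM per kilobase), each overlapping the next. The MT order in both CD11b sets had the same leading 5 as the WT order. The order depends on the transcript: with the shortest coding transcript, between 0 and 4 of the 10 genes kept their rank in a group.

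**Figure D1:**
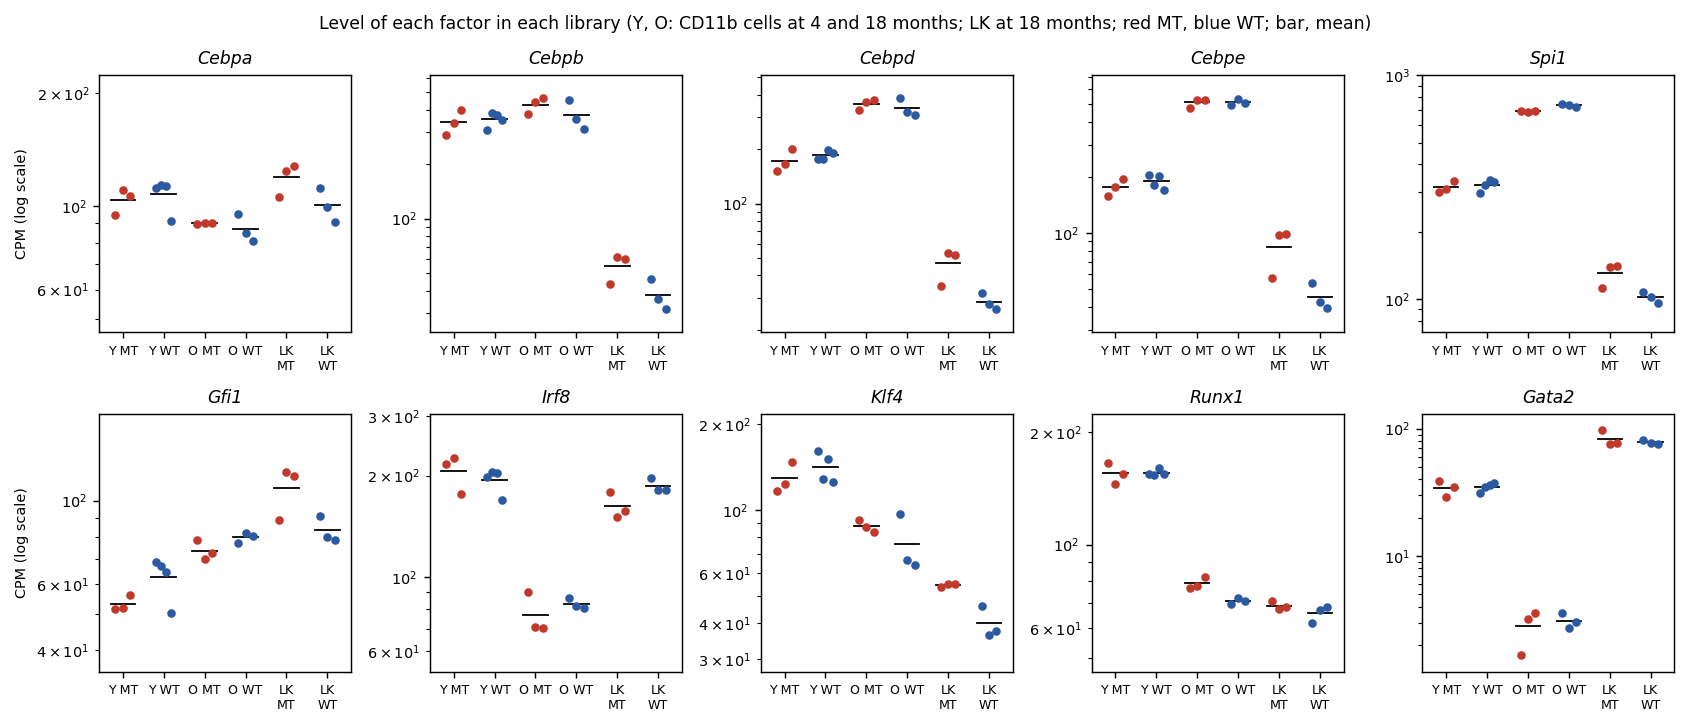
Level of each of the 10 factors in each library, in CPM on a log axis, for young (Y) and old (O) CD11b cells and LK cells; red points are MT, blue points WT, and bars are group means. Cebpb, Cebpd, Cebpe and Spi1 were lowest in LK cells, Gata2 was highest there, and Irf8 and Runx1 were highest or close to highest in young CD11b cells.

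Progenitors and CD11b cells of 18 months differed in most of these factors. In WT libraries 6 of the 10 were lower and 2 higher in LK cells (edgeR's quasi-likelihood test, adjusted p under 0.05), and in MT libraries 6 were lower and 4 higher. Of all genes tested, 86.8% were called in WT (45.1% higher and 41.7% lower) and 87.8% in MT libraries (45.9% higher and 41.9% lower). The ranges of LK and CD11b libraries did not overlap for 8 of the 10 factors in WT and 10 of 10 in MT libraries, beside 91.0% and 92.0% of genes with a mean of at least 1 CPM, so these shares are near the background, and the sizes of the differences carry the description. The median log2 fold change of all genes was 0.08 in WT and 0.10 in MT libraries, and other scaling moved it to between -0.003 and 0.15 in WT and between 0.005 and 0.18 in MT libraries.

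Among the 10 factors, the late and inducible C/EBP factors had the most negative log2 differences between LK and CD11b WT cells. Cebpe, which acts in granulocyte maturation, was at 53.8, 42.3 and 39.1 CPM in LK WT and 490.8, 534 and 504.5 CPM in old CD11b WT libraries. The fitted log2 difference was -3.59 ± 0.11 in WT (adjusted p = 8.143e-09) and -2.69 ± 0.24 in MT libraries (adjusted p = 0.0001397). Cebpd was at 32.1, 27.7 and 26.1 CPM in LK WT against 383.4, 319 and 309.8 CPM in old CD11b WT libraries. Cebpb was at 46.3, 36.0 and 31.7 CPM in LK WT against 451.5, 355.2 and 311.2 CPM. No library of one cell type reached the range of the other for any of the 3 genes. The log2 differences were -3.65 ± 0.11 for Cebpd and -3.39 ± 0.17 for Cebpb in WT, and -3.02 ± 0.18 and -3.06 ± 0.16 in MT libraries.

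Cebpa, the C/EBP factor of early granulocyte-monocyte commitment, was at similar levels in both. LK WT libraries held 111.4, 99.5 and 91.0 CPM and old CD11b WT libraries 95.4, 84.6 and 80.6 CPM. The ranges overlapped (log2 difference 0.12 ± 0.08, adjusted p = 0.2087). In MT libraries, 105.7, 123.7 and 128.2 CPM in LK lay above 89.7, 90.1 and 90.4 CPM in CD11b cells (0.30 ± 0.07, adjusted p = 0.001623), a call that was lost (adjusted p = 0.1752) after correction for transcript length and GC content.

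Spi1 was far higher in CD11b cells. LK WT libraries held 107.9, 101.9 and 95.7 CPM and old CD11b WT libraries 748, 734.5 and 720.3 CPM, a log2 difference of -2.94 ± 0.05 (adjusted p = 8.179e-10). In MT libraries the difference was -2.50 ± 0.08. Gfi1, a repressor that restrains the monocyte programme in granulocyte precursors, showed 91.3, 80.1 and 78.7 CPM in LK WT and 77.2, 82.1 and 80.4 CPM in old CD11b WT libraries. These ranges overlapped (log2 difference -0.03 ± 0.06, adjusted p = 0.6061), and the sign turned to 0.06 in the fit of all 19 libraries. In MT libraries Gfi1 was higher in LK cells (0.45 ± 0.12, adjusted p = 0.009291), a call lost at a similar size with replicates 2 and 3 summed (0.38 ± 0.16, adjusted p = 0.07759).

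The monocyte factors moved in opposite directions. Irf8 was at 196.6, 180.9 and 180.9 CPM in LK WT and 86.5, 81.8 and 80.8 CPM in old CD11b WT libraries, a log2 difference of 1.07 ± 0.05 (adjusted p = 1.108e-07). Klf4 was at 46.0, 36.5 and 37.6 CPM in LK WT and 96.8, 66.5 and 63.8 CPM in old CD11b WT libraries, a difference of -1.02 ± 0.16 (adjusted p = 0.0003791). The MT libraries gave 0.97 ± 0.12 for Irf8 and -0.79 ± 0.05 for Klf4.

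Gata2, a factor of stem cells and of mast cells and basophils, had the largest difference of the 10. It was at 81.6, 77.8 and 76.1 CPM in LK WT and at 3.57, 2.74 and 3.04 CPM in old CD11b WT libraries. The log2 difference was 4.55 ± 0.09 in WT (adjusted p = 1.026e-09) and 4.82 ± 0.25 in MT libraries. Runx1 differed little, with 61.9, 66.9 and 68.1 CPM in LK WT and 69.3, 72.0 and 70.9 CPM in old CD11b WT libraries. Its call of -0.20 ± 0.06 (adjusted p = 0.01126) was lost at 0.01 once a trend with transcript length and GC content was removed. In MT libraries Runx1 turned from -0.30 to 0.15 under that correction (adjusted p = 0.003391).

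**Figure D2:**
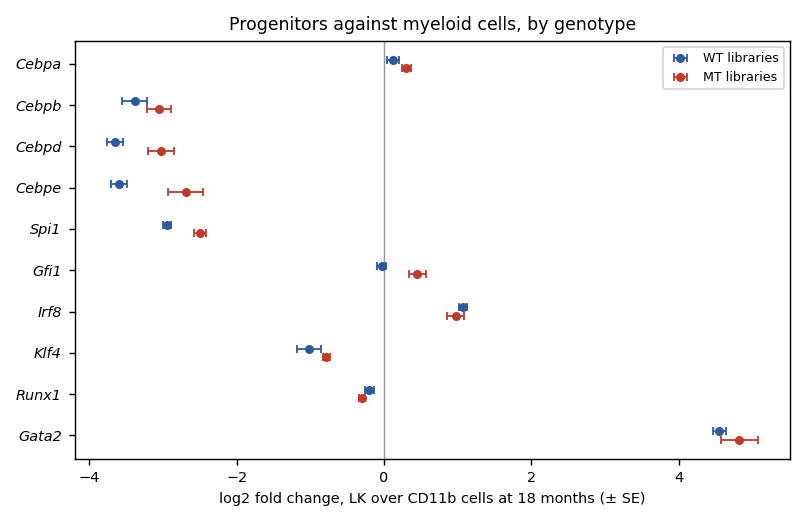
Log2 fold change of each factor in LK over CD11b cells of 18 months, with its standard error, for WT (blue) and MT (red) libraries. Gata2 lies above 4, Cebpb, Cebpd, Cebpe and Spi1 lie between -3.65 and -2.50, and Cebpa, Gfi1 and Runx1 lie within 0.5 of 0.

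Lists of related factors and targets were counted beside the 86.8% of all genes that were called in WT libraries, 45.1% higher and 41.7% lower in LK cells. Of 15 stem and erythroid-megakaryocyte factors, 10 were higher and 4 lower in LK WT cells, led by Tal1 (4.51 ± 0.06), Klf1 (8.02 ± 0.12) and Myc (4.32 ± 0.09). Of 11 other monocyte and dendritic factors, 10 were lower, led by Bcl6 (-4.87 ± 0.07), and Tcf4, a factor of plasmacytoid dendritic cells, was higher (1.07 ± 0.08). Of 18 family members and cofactors, 7 were higher, among them Gfi1b (6.31 ± 0.06), the relative of Gfi1 in red cells and platelets, and Gata1 (5.50 ± 0.12), and 9 were lower, among them Klf6 (-2.81 ± 0.07). Of 16 granulocyte targets of C/EBP and PU.1, 12 were lower, such as Cxcr2 (-8.16 ± 0.10), and 4 were higher. The 12 include Itgam (-6.17 ± 0.10), the gene of the CD11b sort, for which sorting set the direction in advance. The higher ones included the primary granule genes Mpo (3.31 ± 0.07), Ctsg (3.91 ± 0.10) and Prtn3 (2.25 ± 0.08). All 12 monocyte targets of PU.1, IRF8 and KLF4 were lower, also the receptor gene Cx3cr1 (-3.22 ± 0.05). Of 9 genes of GATA2 and mast cells, 8 were higher and 1 lower. The 8 include Kit (1.61 ± 0.07), a marker of the LK sort, for which sorting favoured this direction.

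In LK cells 5 of the 10 factors were called higher in MT libraries (Cebpd, Cebpe, Spi1, Gfi1 and Klf4), 1 was called lower (Irf8) and 4 were not called. Beside them 29.8% of all 14113 genes tested were called, 13.9% higher and 15.9% lower. The median log2 fold change of the 10 was 0.34, beside 0.02 for all genes. The ranges of MT and WT libraries did not overlap for 5 of the 10, and for 47.9% of genes with a mean of at least 1 CPM.

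Within the C/EBP family the largest change was that of Cebpe. The MT libraries held 57.0, 97.8 and 98.4 CPM (replicates 1, 2 and 3) and the WT libraries 53.8, 42.3 and 39.1 CPM. MT replicate 1 stood close to the highest WT library and far below the other MT libraries. The log2 fold change was 0.87 ± 0.23 (adjusted p = 0.03615). Cebpd showed 35.1, 53.4 and 52.0 CPM in MT and 32.1, 27.7 and 26.1 CPM in WT libraries (0.68 ± 0.15, adjusted p = 0.01571). Cebpb was at 43.3, 61.4 and 59.9 CPM in MT and 46.3, 36.0 and 31.7 CPM in WT libraries. Its MT replicate 1 lay within the WT range, and the change of 0.50 ± 0.16 was not called (adjusted p = 0.0524). Cebpa, at 105.7, 123.7 and 128.2 CPM in MT and 111.4, 99.5 and 91.0 CPM in WT libraries, overlapped in the same way (0.22 ± 0.08, adjusted p = 0.06924).

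Spi1 was at 112.6, 139.1 and 140.6 CPM in LK MT and 107.9, 101.9 and 95.7 CPM in LK WT libraries (log2 fold change 0.33 ± 0.08, adjusted p = 0.01596). Gfi1 was at 88.6, 118.8 and 116.2 CPM in MT and 91.3, 80.1 and 78.7 CPM in WT libraries. It was called (0.34 ± 0.10, adjusted p = 0.03842) although MT replicate 1 lay below WT replicate 1. For both genes MT replicates 2 and 3 stood above all WT libraries.

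Klf4 had the tightest MT group, at 53.4, 54.8 and 55.1 CPM, above WT libraries at 46.0, 36.5 and 37.6 CPM (0.42 ± 0.07, adjusted p = 0.008383). Irf8 was the 1 factor called lower, at 178.5, 150.5 and 156.7 CPM in MT and 196.6, 180.9 and 180.9 CPM in WT libraries (-0.23 ± 0.07, adjusted p = 0.04545). Its MT replicate 1 was the MT library nearest to the WT range. Runx1 was at 70.6, 67.4 and 68.2 CPM in MT and 61.9, 66.9 and 68.1 CPM in WT libraries (0.04 ± 0.06, adjusted p = 0.6533). Gata2 was at 96.9, 76.2 and 77.8 CPM in MT and 81.6, 77.8 and 76.1 CPM in WT libraries (0.06 ± 0.10, adjusted p = 0.6522). The ranges overlapped for both, and MT replicate 1 was the highest library for each.

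**Figure D3:**
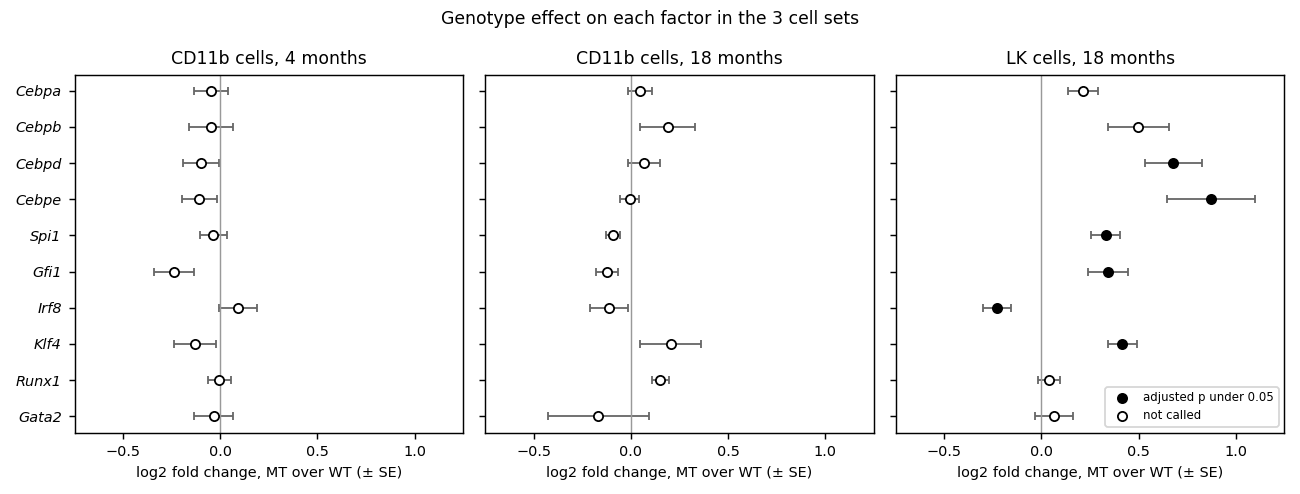
Log2 fold change of each factor in MT over WT libraries, with its standard error, in young CD11b, old CD11b and LK cells; filled circles have an adjusted p under 0.05. Filled circles appear in the LK panel alone, 5 to the right of 0 and Irf8 to the left.

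The LK calls depended on which replicates entered the fit. With replicates 2 and 3 of each genotype alone, 8 of the 10 were called (7 higher, 1 lower). That fit called 8525 genes in all, beside 4206 of 14113 in the main fit. Leaving out WT replicate 1 called 5569 genes in all, and leaving out WT replicate 2 called 983. With replicates 1 and 2 alone, or 1 and 3 alone, 0 of the 10 were called, and with replicates 2 and 3 summed into 1 library per genotype 0 were called as well. Leaving out MT replicate 2, MT replicate 3, WT replicate 2 or WT replicate 3 left 1 of the 10 called, Klf4, while leaving out MT replicate 1 gave 8 and leaving out WT replicate 1 gave 5. Over these fits the genes called in all ran from 983 to 5569, so calls changed over all genes and not among the factors alone. The 8 factors with a log2 change beyond 0.2 kept their sign in all 16 alternative fits, Klf4 with 0.35 to 0.51 and an adjusted p under 0.05 in 12 of the 16. Removal of the trend with length and GC content left Cebpd, Irf8 and Klf4 called and ended the calls of Cebpe (adjusted p = 0.0938), Spi1 (0.0502) and Gfi1 (0.0808), while Runx1 was then called higher (0.22, adjusted p = 0.005593).

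The summed neutrophil markers were highest in LK MT replicates 2 and 3. The summed level of 9 neutrophil markers was 1059, 3672 and 3555 CPM in LK MT replicates 1, 2 and 3 and 952.4, 472.8 and 448.6 CPM in the WT replicates, so that the order of the libraries resembled that of Cebpe. The sums of T and NK, B cell and monocyte markers were also highest in LK MT replicates 2 and 3. The T and NK sums, in the same order, were 190.9, 247.0 and 245.0 CPM in MT and 189.3, 155.7 and 153.2 CPM in WT. The sums of dendritic, eosinophil, mast-basophil, erythroid, megakaryocyte and stem cell markers were highest in other libraries. Of 8 neutrophil markers tested, all had a positive fold change (median 2.34) and 1 was called, S100a8 (1.75, adjusted p = 0.0476), beside 29.8% of all genes called. Ly6g, which defines neutrophils, was at 0.033 to 1.30 CPM in LK MT and 0.046 to 0.122 CPM in LK WT libraries, beside 365.7 to 398.2 CPM in old CD11b cells. The part of these cells in the result was not tested.

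**Figure D4:**
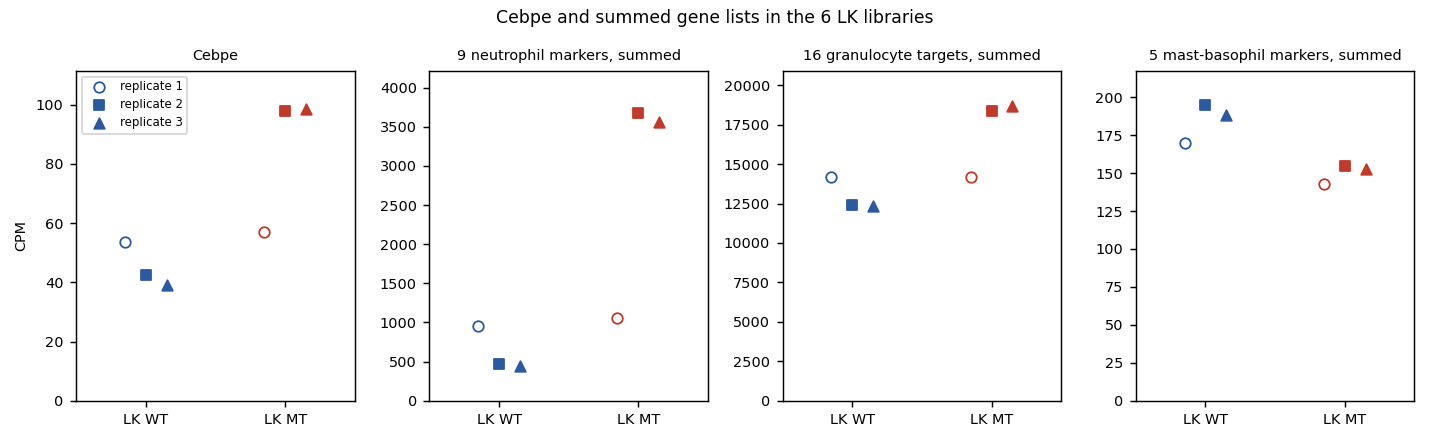
Cebpe and the summed levels of 9 neutrophil markers, 16 granulocyte targets and 5 mast-basophil markers in the 6 LK libraries, in CPM; circles, squares and triangles are replicates 1, 2 and 3. MT replicates 2 and 3 stand apart at 97.8 and 98.4 CPM for Cebpe and at 3672 and 3555 CPM for the neutrophil markers. MT replicate 1 lies near WT replicate 1 for Cebpe, the neutrophil markers and the granulocyte targets. For the mast-basophil markers MT replicate 1 is the lowest library, at 142.9 CPM beside 169.9 CPM in WT replicate 1.

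Genes downstream of these factors were counted from lists in the LK comparison, beside the 13.9% of all genes called higher and 15.9% called lower. Of 16 granulocyte targets of C/EBP and PU.1, 5 were higher and 1 lower (median log2 fold change 0.56). The higher ones included the primary granule proteases Elane (0.49 ± 0.11), Prtn3 (0.39 ± 0.10) and Ctsg (0.24 ± 0.07), and the lower one was Il6ra (-0.34 ± 0.06), a subunit of the interleukin receptor. Their summed level was 14207, 18382 and 18703 CPM in MT and 14202, 12431 and 12327 CPM in WT replicates 1, 2 and 3. The Ctsg value became -0.001 after that correction for length and GC content. The genes named with a value here and in the next 2 paragraphs had an adjusted p under 0.05 in 6 to 12 of 16 alternative fits. With replicates 2 and 3 summed, 3 genes in all were called.

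Of 12 monocyte targets of PU.1, IRF8 and KLF4, 3 were higher and 4 lower, beside 29.8% of all genes called. Ly6c2 (0.48 ± 0.09), Cd74 (0.53 ± 0.13) and Cd14 (0.87 ± 0.24) rose, and Ccr2 (-0.35 ± 0.05), a chemokine receptor gene, F13a1 (-0.24 ± 0.04) and Csf2rb (-0.26 ± 0.05) fell. Of 9 GATA2 targets and mast-basophil genes, 6 were lower and 0 higher. Among the 6 were Ms4a2 (-0.98 ± 0.16), a chain of the IgE receptor, Il1rl1 (-0.30 ± 0.05) and Prss34 (-0.34 ± 0.05). Kit (-0.26 ± 0.08), a marker by which LK cells were sorted, was another. Gata2 itself was not called. The summed level of 5 mast-basophil markers was 142.9 to 154.6 CPM in MT and 169.9 to 195.1 CPM in WT libraries, without overlap. Ms4a2 and Prss34 are in both lists.

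Among 18 family members and cofactors, 5 were higher and 2 lower in LK MT cells, again beside 29.8% of all genes called. Klf2 (1.11 ± 0.14) and Klf6 (0.58 ± 0.06), relatives of Klf4, and Ddit3 (0.38 ± 0.08), a C/EBP relative of the stress response, rose. Rcor1 (-0.80 ± 0.12), a corepressor that works with Gfi1, and Zfpm1 (-0.26 ± 0.08), a partner of GATA factors, fell. Of 15 stem and erythroid-megakaryocyte factors, 3 were higher (Fli1 0.33 ± 0.04, Nfe2 0.18 ± 0.04 and Lyl1 0.17 ± 0.05) and Tal1 was lower (-0.21 ± 0.04). Of 11 other monocyte and dendritic factors, Id2 was higher (0.50 ± 0.15), and Irf7 (-0.33 ± 0.08) and Zeb2 (-0.36 ± 0.10) were lower. Markers of other cells moved too, with 3 of 7 dendritic markers lower and 3 of 7 T and NK markers higher.

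In old CD11b cells 0 of the 10 factors were called between MT and WT, beside 0.336% of all genes tested (45 genes, 17 higher and 28 lower, and 25 higher and 13 lower in the fit of all 19 libraries). At an unadjusted p under 0.05 there were 2, and DESeq2 called 0 of the 10. Runx1 was at 76.6, 77.7 and 82.1 CPM in MT and 69.3, 72.0 and 70.9 CPM in WT libraries, without overlap (0.15 ± 0.04, adjusted p = 0.1632). Spi1 was at 695.1, 685.6 and 693 CPM in MT and 748, 734.5 and 720.3 CPM in WT libraries, also without overlap (-0.09 ± 0.04, adjusted p = 0.2609). For 23.6% of all genes with a mean of at least 1 CPM the ranges did not overlap.

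WT replicate 1 stood apart from the other old WT libraries in several of these genes. Klf4 was at 96.8 CPM there and at 66.5 and 63.8 CPM in the others, beside 92.2, 87.0 and 83.2 CPM in MT libraries. Cebpb was at 451.5 CPM there and at 355.2 and 311.2 CPM in the others, beside 377.3, 439.1 and 463.5 CPM in MT libraries. Without WT replicate 1, Cebpd (0.17) and Klf4 (0.42) were called higher, along with 1819 genes called in all. With replicates 2 and 3 alone 7 of the 10 were called, 4 higher and 3 lower. That fit called 5165 genes in all, beside 45 of 13398 in the main fit. Gata2 was lowest in MT replicate 1, at 1.67 CPM, beside 3.20 and 3.56 CPM in the other MT libraries, and the mast-basophil markers were lowest in an MT library too (11.1 CPM). All 6 eosinophil markers had a negative fold change, and 1 was called, Ccr3 (-0.67, edgeR adjusted p = 0.01636), beside 0.336% of all genes. Their sum was 215.9 to 224.7 CPM in MT and 268.2 to 409.7 CPM in WT libraries. No marker of the other cell types was called. The part of these cells was not tested.

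**Figure D5:**
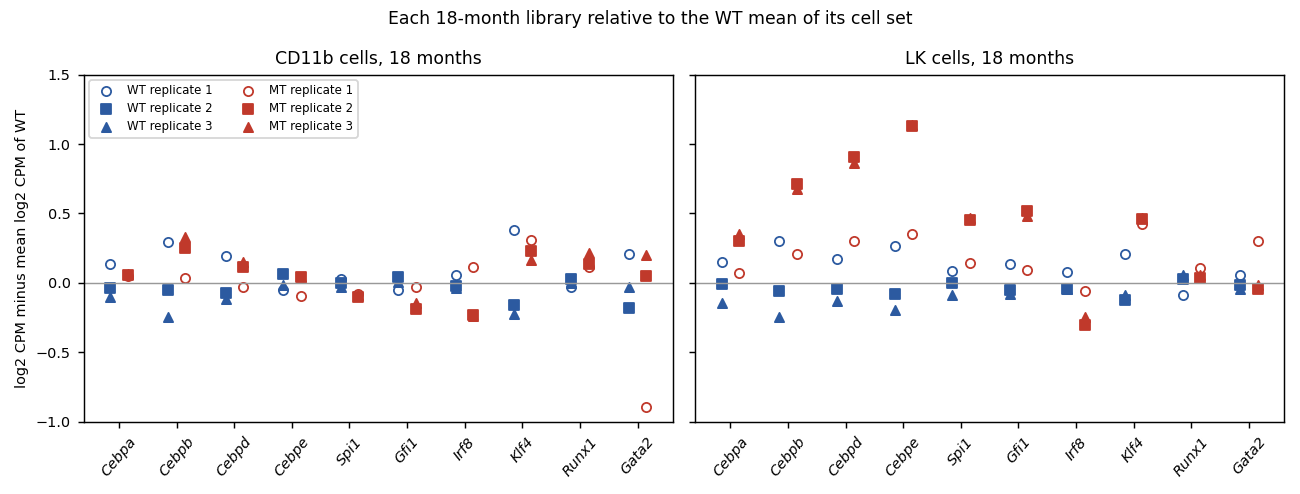
Each library of 18 months relative to the mean log2 CPM of the WT libraries of its cell set, for the 10 factors; circles, squares and triangles are replicates 1, 2 and 3, in blue for WT and red for MT. In LK cells MT replicates 2 and 3 lie together and above MT replicate 1 for Cebpa, Cebpb, Cebpd, Cebpe, Spi1 and Gfi1, and in CD11b cells most points lie within 0.4 of 0.

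In young CD11b cells 0 of the 10 were called, as were 0 of 13755 genes tested (0.0%), with 444 genes at an unadjusted p under 0.05 and 19 called by DESeq2. All 10 ranges overlapped, beside 4.26% of genes without overlap. Gfi1 alone of the 10 had an unadjusted p under 0.05. It was at 51.6, 51.9 and 56.1 CPM in MT and 68.7, 67.2, 64.7 and 50.3 CPM in WT libraries (-0.24 ± 0.10, adjusted p = 0.9993). WT replicate 4 was the lowest of the 7 libraries. Without MT replicate 3 and WT replicate 4 together, Gfi1 was called lower (-0.37, adjusted p = 0.02562), along with 69 genes called in all. That was the 1 of 14 alternative fits to call Gfi1, and it leaves out the lowest library.

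The other 9 factors in young cells had log2 changes between -0.13 and 0.09. Cebpa ran from 94.7 to 110.1 CPM in MT and from 91.2 to 113.7 CPM in WT libraries, Cebpb from 289 to 399.8 and from 310.5 to 385.7 CPM, and Cebpe from 159.2 to 195.3 and from 171.6 to 206.2 CPM. Spi1 ran from 299.6 to 336.3 and from 299.1 to 340 CPM, and Irf8 from 176.6 to 226.3 and from 169.8 to 205.5 CPM. Runx1 was at 145.1 to 165.3 CPM in MT and 153.3 to 160 CPM in WT libraries.

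Whether the genotype effect differed between LK and old CD11b cells was tested as an interaction. Of the 10 factors, 4 were called, all with a higher MT effect in LK cells, beside 20.7% of all genes (8.79% higher and 12.0% lower; 1230 and 1674 genes, or 842 and 753 after correction for length and GC content). The differences of the log2 effects were 0.87 ± 0.24 for Cebpe (adjusted p = 0.03164), 0.60 ± 0.19 for Cebpd (0.04793), 0.41 ± 0.09 for Spi1 (0.01166) and 0.46 ± 0.12 for Gfi1 (0.02277). Spi1 missed the threshold in 3 of 22 alternative fits, those with replicates 2 and 3 summed or with replicate 1 and a single other replicate. Klf4 (0.21 ± 0.19) and Irf8 (-0.12 ± 0.13), called in LK cells, were not called as differing between the cell types. Leaving out 1 of the 12 libraries gave between 1 and 4 calls: 1 without replicate 2 or without replicate 3 of any of the 4 groups, 2 without CD11b MT replicate 1, 3 without CD11b WT replicate 1, and 4 without either LK replicate 1. With replicates 2 and 3 alone there were 7 calls (5 higher, 2 lower) among the 10, along with 7336 genes in all. The main fit called 2904 of 13996 genes. With 1 and 2, or 1 and 3, there were 0 calls, also over all genes. Of the granulocyte targets, 4 of 16 had a higher MT effect in LK cells, among them Elane (0.88 ± 0.15), Prtn3 (0.84 ± 0.14) and Mpo (0.59 ± 0.11). For 1, Il6ra, the effect was lower (-0.534 ± 0.135). The MT effects of Elane, Prtn3 and Mpo were 0.49, 0.39 and 0.23 in LK cells. In old CD11b cells they were -0.405, -0.454 and -0.359, none of them called.

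A test of whether the genotype effect changed with age in CD11b cells called 0 of the 10 factors, beside 0.0214% of all genes (3 of 14024), and 0 had an unadjusted p under 0.05. DESeq2 also called 0 of the 10. The largest difference was that of Klf4, 0.33 ± 0.21 (adjusted p = 0.7838).

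Old and young CD11b cells were compared among WT libraries, where age and library set cannot be told apart. Of the 10 factors, 4 were higher (Cebpd, Cebpe, Spi1 and Gfi1) and 5 lower (Cebpa, Irf8, Klf4, Runx1 and Gata2) in old cells, beside 73.1% of all genes, 36.1% higher and 36.9% lower. Cebpe was at 490.8, 534 and 504.5 CPM in old and 206.2, 182.7, 204.5 and 171.6 CPM in young libraries (1.40 ± 0.08, adjusted p = 1.621e-07). Spi1 was at 720.3 to 748 CPM in old and 299.1 to 340 CPM in young libraries (1.16 ± 0.07). Cebpd rose by 0.85 ± 0.08 and Gfi1 by 0.33 ± 0.10 on the log2 scale. These 4 genes had no library of one age within the range of the other, and of the 10 factors 8 had none, beside 74.7% of genes with a mean of at least 1 CPM.

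Gata2 fell most, from 31.2, 34.9, 36.0 and 37.8 CPM in young to 3.57, 2.74 and 3.04 CPM in old WT libraries (-3.50 ± 0.11, adjusted p = 3.785e-09). Irf8 was at 169.8 to 205.5 CPM in young and 80.8 to 86.5 CPM in old libraries (-1.24 ± 0.08). Runx1 was at 153.3 to 160 CPM in young and 69.3 to 72.0 CPM in old libraries (-1.16 ± 0.05), and Klf4 changed by -0.92 ± 0.15. Cebpa changed by -0.33 ± 0.09 with overlapping ranges, and its call was lost (-0.05, adjusted p = 0.5194) after correction for length and GC content. Cebpb was not called (0.05 ± 0.12, adjusted p = 0.7003), but reached 0.77 (adjusted p = 0.0001903) under that correction.

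Markers of several cell types also differed between ages, where 36.1% of all genes were called higher and 36.9% lower. In WT libraries the summed level of 5 mast-basophil markers was 272.7 to 340.2 CPM in young and 22.0 to 41.1 CPM in old cells, and all 5 were called lower, as were 8 of 9 GATA2 targets and mast-basophil genes. These lists share genes, among them Ms4a2 and Cpa3. The sum of 6 eosinophil markers was 1823 to 2352 CPM in young and 268.2 to 409.7 CPM in old cells. The sum of 9 neutrophil markers was 44502 to 56829 CPM in young and 143357 to 174306 CPM in old cells, with all 9 called higher. Of 6 B cell markers 5 were lower, and of 7 T and NK markers 6 were lower. The part of these cells in the changes of the factors was not tested.

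The following counts stand beside the 73.1% of all genes called between ages, 36.1% higher and 36.9% lower. Among the targets, 11 of 16 granulocyte genes were higher in old cells, led by Cd177 (1.41 ± 0.08), and 4 were lower, among them the primary granule genes Mpo (-2.35 ± 0.19) and Ctsg (-2.32 ± 0.21). Of 12 monocyte targets, 9 were higher and 2 lower. Of 15 stem and erythroid-megakaryocyte factors, 10 were lower, such as Meis1 (-2.76 ± 0.17), and 5 higher, such as Nfe2 (1.09 ± 0.07). Of 18 family members and cofactors, 11 were lower, such as Runx2 (-1.38 ± 0.06), and 2 higher, Ddit3 (1.09 ± 0.10) and Batf3 (1.625 ± 0.209).

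The genes whose log2 CPM followed each factor most closely over the 19 libraries were sought among 8928 genes. The points share 3 cell sets, so the correlations are given as a description. Spi1 was followed by Slc9a3r1 and Rinl (Pearson r = 0.999 each), Cebpd by Slc24a6 (0.998) and Tnfsf13b (0.997), Cebpe by Ethe1 and Gyg (0.996 each) and Cebpb by Hlx and Btg1 (0.996 each). Runx1 was followed by the histone genes Hist1h1e (0.994) and Hist1h3f (0.993), Gata2 by Slc22a3 (0.992) and BC035044 (0.99), Irf8 by Grlf1 (0.987) and Ipo8 (0.986), and Klf4 by Plk2 (0.979) and Rnf144b (0.973). Gfi1 was followed by Ptgr1 (0.979) and H2afj (0.951). Cebpa had the loosest followers, Tgfb1 (0.913) and Kdelr2 (0.859).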

How the data were processed

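Directional RNA libraries were made from column-purified RNA, per the labels' protocols. The deposited files hold a whole-number count for each gene symbol and library. The submitters' processing notes name STAR, HTSeq, DESeq2 and mm10, without roles or versions; annotation and use of strand are not given in the sources used here. Each cell set lists its own genes (15703 young, 15070 old, 15793 LK), with sums of at least 10 counts over a set. Transposable element counts were not used here.

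Groups and replicate numbers come from the labels. Here, counts were tested with edgeR 4.0.16 (quasi-likelihood, filterByExpr, TMM, robust; R 4.3.3) in 8 comparisons, each on its own libraries, with Benjamini-Hochberg adjustment over all genes tested and calls at an adjusted p below 0.05. Standard errors are log2 fold changes divided by the square root of F. CPM use TMM factors over the 14246 genes listed in all 3 sets, so ratios of CPM can differ slightly from the fits. Lengths came from GENCODE vM21 (96.1% to 96.6% of genes matched). Alternatives were RLE factors, no filter, DESeq2 1.42.0, a replicate block and removal of a spline trend in length and GC content. Others were a fit of all 19 libraries, replicates 2 and 3 summed, and leaving out each library. Young MT replicate 3 and WT replicate 4 were also left out together. Fits on pairs of replicates were added after seeing the data. The scripts were tested on simulated data.

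The 10 factors and the gene lists were chosen with earlier results of these data known. From each list the called genes with the smallest p were named, up to 3 per direction, and for each factor the 2 genes most correlated among those with a mean of at least 10 CPM.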

Additional observations from a re-analysis of the deposited data

Results flagged for a closer look

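Cebpa in young CD11b WT libraries had a lowest value of 91.16 CPM (replicate 4) that stood far from the other 3 libraries, which ran from 111.6 to 113.7 CPM. The 10 factors were checked in this group of 4 libraries, and chance alone gives such a gap in about 1 in 20 groups. The difference between the MT effect in LK and in old CD11b cells passed the interaction test of edgeR for Cebpd (0.602), Cebpe (0.872), Spi1 (0.415) and Gfi1 (0.456), as log2 differences. In LK cells the MT effect was positive for each of the 4, and in old CD11b cells it was 0.07 for Cebpd, -0.01 for Cebpe, -0.09 for Spi1 and -0.12 for Gfi1.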

How the results depend on the processing

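Differences between LK and CD11b cells and between ages kept their direction under the alternatives given, except those of Cebpa, Gfi1, Runx1 and Cebpb given here. Fits on pairs of replicates are given only for the genotype effects at 18 months and their interaction with cell type. Genotype calls at 18 months depended on which replicates entered. The causes were not tested. Of the values under alternatives in the LK genotype comparison, 246 lost a call, 13 gained one and 5 changed sign, while 344 kept direction and side of the threshold. Gata2 in old CD11b cells rested on the fewest counts (84 in MT replicate 1), and no other factor had under 1072 counts in a library. Whether the replicate numbers pair the libraries could not be decided. Correlations of same-numbered libraries ran from -0.247 to 0.205, and not every library correlated best with its own number. At 18 months replicates 2 and 3 were too alike for this check to tell them apart by number. In WT cells, LK replicate 1 correlated at 0.115 with old CD11b replicate 1, beside -0.059 and -0.085 with replicates 2 and 3. The main fits treat the libraries as unpaired. With the replicate number as a block, the genes called became 16 (young MT against WT), 0 (old), 3 (LK) and 9 (genotype by age), and the factors called became 0 (LK) and 1 (genotype by cell type); in the other comparisons the block left the counts of calls within 1.5 times. DESeq2 called 19 genes (young), 521 (old) and 65 (genotype by age). The fit of all 19 libraries called 5 genes (young), 1864 (genotype by cell type) and 10 (genotype by age), and turned Gfi1 in LK against CD11b WT cells to 0.061.

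Removing the length and GC trend left 139 genes (old), 2653 (LK), 1595 (genotype by cell type) and 7 (genotype by age), and 2 factors in genotype by cell type. It turned Cebpa to 0.014, Cebpb to 0.024 and Spi1 to 0.006 (young), Cebpe to 0.07 (old), Ctsg to -0.001 (LK), Cebpa to -0.038 and Runx1 to 0.005 (LK against CD11b, WT), Runx1 to 0.146 (the same, MT), and Asxl1 to 0.004 and Runx1 to 0.15 (genotype by cell type). With replicates 2 and 3 summed there were 1 gene (old), 3 genes and 0 factors (LK), and 0 genes and 0 factors (genotype by cell type).

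The pairs of replicates were chosen after seeing the data. With replicates 2 and 3 only, 5165 genes and 7 factors (old), 8525 genes (LK), and 7336 genes and 7 factors (genotype by cell type) were called. Asxl1 turned to 0.031, Cebpe to 0.002 and Gata2 to 0.202 (old), Gata2 to -0.058 and Runx1 to -0.051 (LK), and Gata2 to -0.269 (genotype by cell type). With replicates 1 and 2 only, 2 genes (old), 6 genes and 0 factors (LK), and 0 genes and 0 factors (genotype by cell type) were called, and in old cells Cebpa turned to -0.007 and Cebpd to -0.025. With 1 and 3 only, the counts were 3 genes (old), 6 genes and 0 factors (LK), and 0 and 0 (genotype by cell type), and Cebpe turned to 0.007 in old cells.

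Leaving out libraries gave the following ranges. In young cells 0 to 1 factors and 0 to 69 genes were called (69 without both MT replicate 3 and WT replicate 4), and Cebpa ran from -0.136 to 0.018, Cebpb from -0.179 to 0.066 (also 0.005), Gata2 from -0.124 to 0.076 (also 0.004), Runx1 from -0.049 to 0.046 (also 0.008) and Spi1 from -0.083 to 0.005. In old cells 0 to 2 factors and 0 to 1819 genes were called, the most without WT replicate 1, and Asxl1 ran from -0.037 to 0.026, Cebpa from -0.007 to 0.12, Cebpe from -0.034 to 0.031 (also 0.03) and Gata2 from -0.365 to 0.099. In LK cells 1 to 8 factors and 983 (without WT replicate 2) to 5569 genes (without WT replicate 1) were called, and Gata2 ran from -0.071 to 0.132 and Runx1 from -0.038 to 0.064. In old against young WT cells Cebpb ran from -0.102 to 0.174 (also -0.006). In genotype by cell type 1 to 4 factors and 1129 to 4168 genes were called, and Gata2 ran from -0.04 to 0.432, Irf8 from -0.181 to 0.002 and Klf4 from -0.017 to 0.341. In genotype by age 0 to 77 genes were called, and Gata2 ran from -0.336 to 0.135. Per kilobase of the shortest transcript, 0 (young MT), 0 (young WT), 2 (old MT), 3 (old WT), 2 (LK MT) and 4 (LK WT) of the 10 factors kept their rank.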
